A study of Drosophila melanogaster with 56 samples.

Results

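The mitochondrial ribosomal protein genes of Drosophila melanogaster were followed through fasting. They were the probe sets whose only annotated gene symbol starts with mRpL or mRpS, 71 of the 18952 probe sets on the array. These 71 probe sets stood for 69 genes, of which 44 carry a large-subunit symbol (mRpL) and 25 a small-subunit symbol (mRpS). The mitochondrial ribosome translates the few proteins that mitochondrial DNA encodes, all of them parts of the respiratory chain or of ATP synthase. Its protein parts are encoded in the nucleus, made on cytosolic ribosomes and imported into the mitochondrion. In flies and mammals it has kept most of the proteins of the bacterial ribosome and has gained others that bacteria lack, so the gene numbers were used to split the 69 genes. A gene was placed in the low-number class where its number also exists in bacteria (up to mRpL36 and mRpS21, 40 genes), and the other 29 were placed in the higher-number class. This split rests on symbols alone. In mammals, a few high-numbered proteins have bacterial counterparts and a few proteins named for the small subunit sit in the large one.

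Adult flies came as 6 pools, sampled before fasting (0 h, labelled baseline) and after 24 h and 48 h of fasting, and some pools lack an array in some groups. Each sample was divided into antenna, palp with proboscis (palp hereafter), head without its chemosensory organs (head hereafter) and body without its head (body hereafter). Total RNA of each was hybridised to 1 array, 56 in all. Antenna had 4, 5 and 5 arrays at 0, 24 and 48 h, and palp, head and body each had 5, 5 and 4. Strain, sex and age of the flies were not given in the sources used here. Groups of flies kept on food for 24 or 48 h are not described in the labels, so fasting cannot be told apart from age or elapsed time.

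Values are log2 signals, on which a difference of 1 is a doubling. All arrays had the same median of 4.04 after the authors' scaling, so each value is relative to the other transcripts of that array. None of the 69 genes fell below 4 on any array, and their values ran from 5.42 to 13.96. A difference is given as a log2 value ± its standard error from limma, and its p-value is adjusted by Benjamini-Hochberg over all features tested. "Rose", "fell", "higher" and "lower" are used where that adjusted p was below 0.05. Antennal markers read 12.4 to 12.8 in 0 h antenna, photoreceptor markers 14.0 to 14.4 in 0 h head, and markers of gut, testis and accessory gland above 13 in 0 h body. Palp and proboscis markers read 7.05 to 8.24 in 0 h palp. Gut markers were also high on replicate 2 of the 0 h antenna, palp and head arrays (13.0, 12.9 and 13.9), accessory gland markers on replicate 1 of 24 h antenna (12.1) and testis markers on replicate 2 of 24 h palp (11.0). Results were therefore also computed without these 5 arrays. In head, gut markers also read 10.95 to 13.0 on the 24 h arrays and 6.94 to 11.7 on the 48 h arrays. Those arrays were kept, so in head this setting does not remove the gut signal.

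Most mRp genes read lower after fasting than before it, by a small amount. At 24 h, the 69 genes had a median log2 difference from 0 h of -0.32 in head, where all features tested had a median of 0.03. The corresponding medians were -0.18 in body (all features, 0.06), -0.30 in palp (-0.02) and -0.27 in antenna (0.01). At 48 h the 69 genes had medians of -0.24 in head (all features, 0.08), -0.21 in body (0.10), -0.07 in palp (0.02) and -0.30 in antenna (0.04). In bulk tissue, fewer cells of a type and less RNA per cell cannot be told apart.

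**Figure D1:**
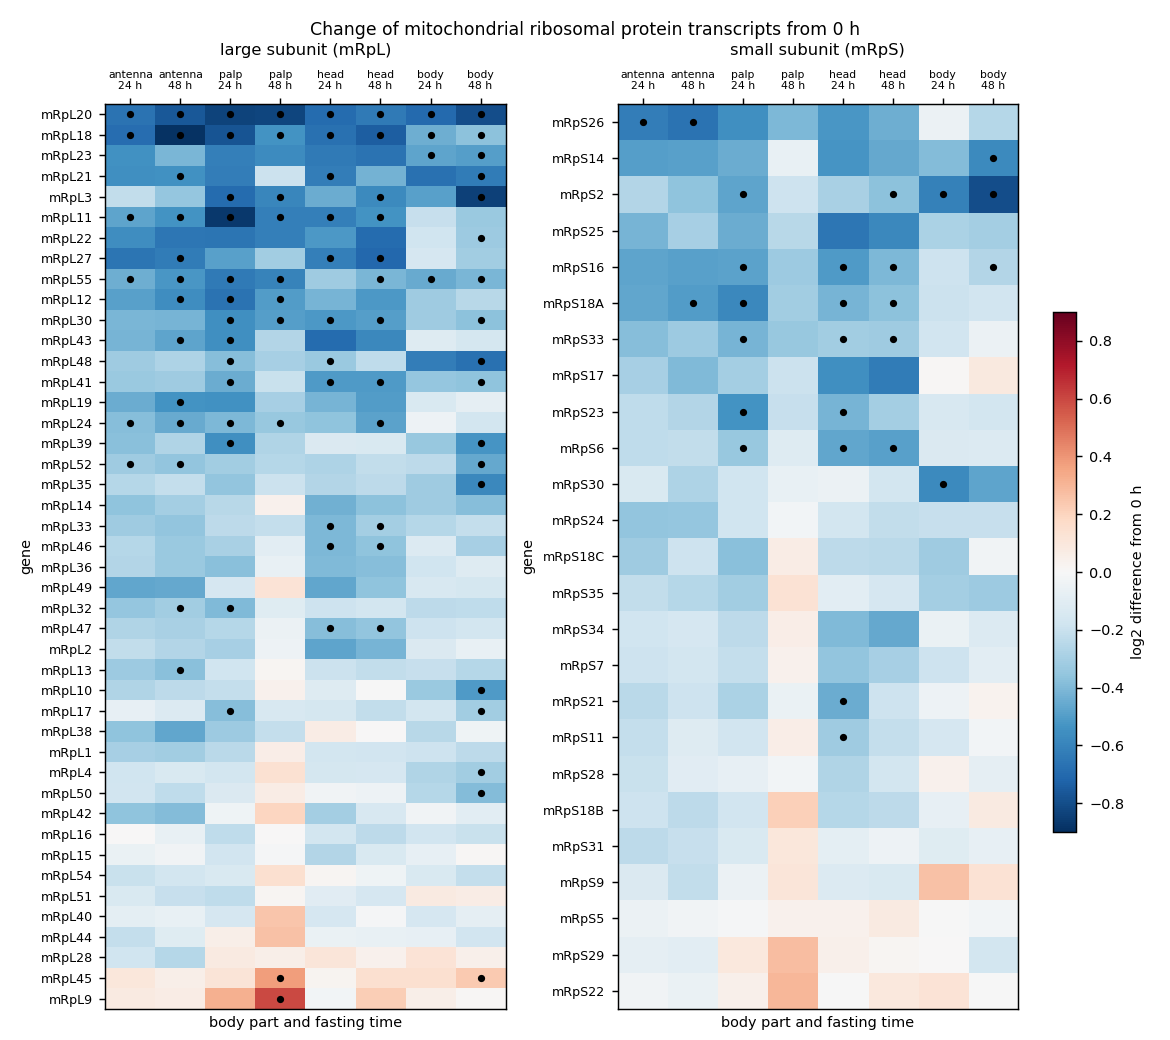
Log2 difference from 0 h for each of the 69 genes (rows, large subunit left and small subunit right, ordered by mean) in antenna, palp, head and body at 24 h and 48 h (columns). Black dots mark differences with an adjusted p below 0.05. Blue covers most cells, and the only dots on red cells are those of mRpL45 in palp and body and mRpL9 in palp, all at 48 h.

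The direction was shared by most of the genes. The estimate was below 0 in all 4 body parts for 55 of the 69 genes at 24 h, or 79.7%, against 23.1% of the 7180 features tested in all 4 parts. At 48 h it was below 0 in all 4 parts for 38 genes, or 55.1%, against 24.0% of features. The 4 parts were dissected from the same pools, so they are not independent of each other. Fewer differences passed the test for single genes. At 24 h, 4 genes fell in 3 or 4 parts (5.8%, against 4.54% of features), and at 48 h, 7 did (10.1%, against 9.76%), which is near the background. Over the 8 comparisons with 0 h, 39 genes fell in at least 1 (56.5%, against 35.0% of features), 2 rose in at least 1 (2.9%, against 36.1%), and 28 were called in none. The 39 comprised 28 of the 44 large-subunit genes and 11 of the 25 small-subunit genes, and 26 of the 40 low-number and 13 of the 29 higher-number genes. The 8 comparisons held 114 called differences, of which 77 lost the call under at least 1 of the other settings tried (each array left out in turn among them) and 37 under none.

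The median signal of the 69 genes on each array gives the same picture without a test. In antenna it was 11.08 to 11.30 on the 0 h arrays, 10.84 to 11.03 at 24 h and 10.79 to 10.97 at 48 h, so both fasted groups lay wholly below the unfasted one. In head it was 10.79 to 10.93 at 0 h, 10.45 to 10.75 at 24 h and 10.52 to 10.69 at 48 h, again without overlap. In palp the 24 h arrays (10.53 to 10.78) lay below the 0 h arrays (10.85 to 11.14), and the 48 h arrays (10.63 to 11.19) overlapped both. In body the 3 groups overlapped, at 10.13 to 10.54, 10.01 to 10.35 and 10.03 to 10.27.

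**Figure D2:**
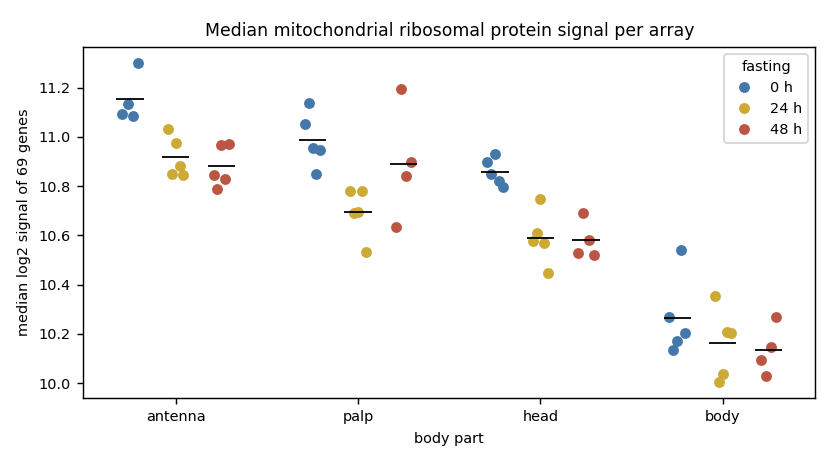
Median log2 signal of the 69 genes on each array (1 point per array) by body part and fasting time, with the group mean as a bar. Antenna and head separate 0 h from both fasted groups, palp separates 0 h from 24 h only, and the body groups overlap.

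In antenna, 7 genes fell at 24 h (10.1%, against 3.15% of all features tested) and 15 at 48 h (21.7%, against 8.97%). None rose at either time, where 2.58% and 8.61% of features did. Arrays of the 2 groups did not overlap for 18 genes at 24 h and 22 at 48 h, all lower, against 5.36% and 8.64% of features. The 7 were mRpL18, mRpL20, mRpS26, mRpL11, mRpL55, mRpL24 and mRpL52, and all 7 were again among the 15. mRpS26 had a log2 difference of -0.62 ± 0.16 at 24 h (adjusted p = 0.0367) and of -0.67 ± 0.16 at 48 h (adjusted p = 0.0127). mRpL27 fell at 48 h by 0.63 ± 0.19 (adjusted p = 0.0346). The call of mRpS26 was lost under 8 settings at 24 h and with the pool as a block at 48 h (adjusted p = 0.0603), and that of mRpL27 under 10 settings. With the pool as a block, 0 genes were called at 24 h (against 1.52% of features lower), where 23 had an unadjusted p below 0.05, and 6 of the 15 were called at 48 h (8.7%, against 6.54%). The count at 24 h was 20 without 24 h replicate 1, which carried accessory gland transcripts, 3 without 0 h replicate 2, 2 without 24 h replicate 4, and 1 without 24 h replicate 2, 24 h replicate 6 or 0 h replicate 4, while that at 48 h was 9 without 0 h replicate 4.

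In palp, 20 genes fell at 24 h (29.0%, against 12.5% of features) and none rose (against 11.0%). At 48 h, 8 fell (11.6%, against 15.7% of features) and 2 rose (2.9%, against 17.4%), so fewer of these genes were called at 48 h than of all features. mRpL11 led at 24 h with -0.87 ± 0.20 (adjusted p = 0.00802), and mRpL20, mRpL18 and mRpL3 came next. Markers of muscle (3 genes), a tissue of the proboscis, read 11.1 to 11.7 at 0 h, 12.0 to 12.4 at 24 h and 11.5 to 12.0 at 48 h, and their part in these differences was not tested. RNA quality was measured as the signal at the 3′ end of control transcripts minus that at the 5′ end. Its palp medians were 2.69, 3.35 and 3.27 at 0, 24 and 48 h. With it as a covariate, 15 of the 20 genes stayed called at 24 h (21.7%, against 11.9% of features lower), and no call was lost at 48 h. With the pool as a block, 16 genes fell at 24 h (23.2%, against 15.1% of features) and 1 rose, mRpL9 (1.45%, against 13.4%). In that fit 6 fell at 48 h (8.7%, against 17.5%) and 3 rose (4.35%, against 18.1%). It kept 14 of the 20 calls at 24 h and 8 of the 10 at 48 h. Without the arrays that carried gut or testis transcripts, 9 genes were called at 24 h (13.0%, against 8.79% of features). The count at 48 h was 5 without 0 h replicate 1, 0 h replicate 3 or 48 h replicate 1, and 6 without 48 h replicate 4.

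In head, 18 genes fell at 24 h (26.1%, against 9.7% of features) and 17 at 48 h (24.6%, against 12.3%). None rose at either time, where 7.52% and 13.2% of features did. mRpL20, mRpL18, mRpL21 and mRpL27 had the largest falls at 24 h, and mRpL18, mRpL27, mRpL20 and mRpL3 at 48 h. The difference of mRpL21 at 24 h was -0.62 ± 0.18 (adjusted p = 0.0318), and that of mRpL27 was -0.61 ± 0.19 at 24 h (adjusted p = 0.0428) and -0.70 ± 0.20 at 48 h (adjusted p = 0.0225). These calls were lost under 10, 10 and 6 settings, with an adjusted p of up to 0.0809, 0.106 and 0.0832. In the fit with the pool as a block, 42 genes fell at 24 h (60.9%, against 20.3% of features in that fit) and 37 at 48 h (53.6%, against 21.3%). The blocked fit also called mRpL9 higher at 48 h (0.38 ± 0.09, adjusted p = 0.0101, with 28.5% of features higher). The genes lower in it included all 18 and all 17 of those called without the block. The median of 4 gut markers in head was 8.05 at 0 h, 12.4 at 24 h and 9.99 at 48 h, and the signal at the 3′ end of control transcripts minus that at the 5′ end, a measure of RNA quality, was 3.33, 4.71 and 5.11 (medians). With this control signal as a covariate, 16 genes fell at 24 h (23.2%, against 9.66% of features) and 13 at 48 h (18.8%, against 10.0%), and 5 of the 18 and 7 of the 17 calls were lost, mRpL27 and mRpL30 at both times among them. The part of the gut transcripts in the falls was not tested. The count at 24 h was 11 without 24 h replicate 5, and that at 48 h was 8, 9, 9 and 10 without 48 h replicate 3, 48 h replicate 4, 0 h replicate 1 and 0 h replicate 3.

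In body, 6 genes fell at 24 h (8.7%, against 12.0% of features) and none rose (against 9.17%). At 48 h, 20 fell (29.0%, against 21.0%) and mRpL45 alone rose (1.45%, against 29.8%), in a comparison in which 50.8% of all features were called. mRpL3 had the largest fall at 48 h, -0.84 ± 0.18 (adjusted p = 0.0031), from a mean of 10.13 ± 0.26 (SD, n = 5) to 9.29 ± 0.19 (SD, n = 4), with no overlap. mRpL23, whose bacterial counterpart lines the mouth of the tunnel through which the new protein leaves, fell at 24 h by 0.47 ± 0.14 (adjusted p = 0.0277), a call lost under 7 settings (adjusted p of up to 0.146). With the 3′ minus 5′ control signal as a covariate, 4 genes were called at 48 h, 3 of them lower (4.35%, against 14.9% of features). The median of this signal was 1.80, 1.82 and 2.07 at 0, 24 and 48 h. The accessory gland markers (5 genes) read 14.3 to 14.5 at 0 h, 13.95 to 14.3 at 24 h and 12.97 to 13.7 at 48 h, the 48 h arrays below all others. The 4 gut markers had a median of 14.3 at 0 h and 13.9 at 48 h, and the part of these tissues in the differences was not tested. The count at 24 h was 19 without 24 h replicate 1, 3 without 24 h replicates 2, 3 or 5 or 0 h replicate 5 and 2 without 0 h replicate 4, and that at 48 h was 9 without 48 h replicate 1 or 0 h replicate 4 and 11 without 48 h replicate 2.

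The 3 genes that fell in all 4 body parts at 48 h (4.35%, against 4.67% of features) were mRpL20, mRpL18 and mRpL55, all of the large subunit. mRpL20 is the counterpart of a bacterial protein needed for the assembly of the large subunit. In antenna it read 10.83, 11.31, 10.91 and 11.25 on the 0 h arrays, 10.55, 10.20, 10.82, 10.29 and 10.21 at 24 h, then 10.18, 10.28, 10.38, 10.35 and 10.38 at 48 h. In palp it read 11.08, 11.18, 11.04, 10.82 and 11.05 at 0 h, 10.42, 9.87, 10.17, 10.23 and 10.32 at 24 h, then 9.48, 10.69, 10.33 and 10.34 at 48 h. In both organs every fasted array lay below every unfasted one, and palp 48 h replicate 1 was far below the other 3 of its group. In head it read 10.90, 10.91, 10.76, 10.73 and 10.39 at 0 h, 10.10, 9.90, 10.40, 9.91 and 9.93 at 24 h, then 10.21, 10.19, 9.83 and 10.19 at 48 h. In body it read 9.96, 9.94, 10.16, 10.41 and 9.98 at 0 h, 9.78, 9.26, 9.05, 9.61 and 9.27 at 24 h, then 8.90, 9.46, 9.41 and 9.40 at 48 h. The groups did not overlap with 0 h in body, nor in head at 48 h, and at 24 h only 1 head array reached the lowest 0 h value. The log2 differences at 24 h were -0.66 ± 0.14 for antenna, -0.83 ± 0.18 for palp, -0.69 ± 0.13 for head and -0.70 ± 0.16 for body, with adjusted p from 0.00294 to 0.0135. At 48 h they were -0.76 ± 0.14, -0.82 ± 0.20, -0.63 ± 0.14 and -0.80 ± 0.17, with adjusted p from 0.00232 to 0.00566. Across the settings tried, the call was lost once, in antenna at 24 h with the pool as a block (adjusted p = 0.0658).

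mRpL18 is the counterpart of a bacterial protein that binds 5S ribosomal RNA. In antenna it read 10.17, 10.46, 10.28 and 10.78 at 0 h, 9.84, 9.56, 9.83, 9.78 and 9.68 at 24 h, then 9.74, 9.04, 9.59, 9.48 and 9.82 at 48 h. In palp it read 10.64, 10.22, 10.28, 10.07 and 9.90 at 0 h, 9.74, 9.28, 9.44, 9.63 and 9.11 at 24 h, then 9.33, 9.94, 9.74 and 9.72 at 48 h. The antennal groups stood apart from 0 h at both times, and the palp groups at 24 h only. In head it read 10.14, 9.78, 10.09, 9.75 and 9.51 at 0 h, 9.46, 8.88, 9.52, 9.34 and 8.72 at 24 h, then 9.27, 9.29, 9.08 and 8.81 at 48 h. In body it read 9.86, 9.59, 9.68, 10.08 and 9.79 at 0 h, 9.76, 9.22, 9.21, 9.22 and 9.40 at 24 h, then 9.32, 9.30, 9.39 and 9.71 at 48 h. Each fasted body group had 1 array within the 0 h range. The differences at 24 h were -0.69 ± 0.16 for antenna, -0.78 ± 0.16 for palp, -0.67 ± 0.18 for head and -0.44 ± 0.13 for body, and at 48 h -0.89 ± 0.16, -0.54 ± 0.17, -0.74 ± 0.19 and -0.37 ± 0.14. Their adjusted p ran from 0.00199 to 0.0334. The calls in palp at 24 h and in antenna and head at 48 h held under all settings tried. The others were lost under some, in antenna at 24 h under 7 (adjusted p of up to 0.112), in head at 24 h under 4 (0.0567), in palp at 48 h under 5 (0.0989), and in body under 8 at 24 h (0.0838) and 9 at 48 h (0.31). The gene overlaps ox, which encodes a small subunit of respiratory complex III.

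mRpL55 is in the higher-number class by its symbol. In antenna it read 11.48, 11.40, 11.38 and 11.77 at 0 h, 11.22, 11.08, 11.24, 11.03 and 10.78 at 24 h, then 11.01, 11.05, 11.08, 10.81 and 10.99 at 48 h. In palp it read 10.99, 10.97, 11.11, 11.10 and 11.20 at 0 h, 10.49, 10.36, 10.46, 10.45 and 10.43 at 24 h, then 9.89, 10.80, 10.46 and 10.74 at 48 h. No fasted array of these organs reached the unfasted range, and the 24 h palp arrays lay close together. In head it read 10.92, 10.98, 11.13, 11.03 and 11.10 at 0 h, 10.56, 10.75, 11.04, 10.58 and 10.65 at 24 h, then 10.53, 10.78, 10.47 and 10.71 at 48 h. In body it read 9.64, 9.71, 9.78, 10.06 and 9.71 at 0 h, 9.48, 9.09, 9.10, 9.46 and 9.51 at 24 h, then 9.23, 9.53, 9.21 and 9.52 at 48 h. At 24 h, 1 head array lay within the 0 h range, and there the difference of -0.32 ± 0.10 did not pass (adjusted p = 0.0506). It did pass under 7 other settings, the pool as a block among them (-0.265 ± 0.073, adjusted p = 0.0196). The gene fell in the other 3 parts at 24 h, by 0.44 ± 0.11 in antenna, 0.64 ± 0.14 in palp and 0.45 ± 0.12 in body. At 48 h the differences were -0.52 ± 0.11 for antenna, -0.60 ± 0.15 for palp, -0.41 ± 0.11 for head and -0.41 ± 0.13 for body, with adjusted p from 0.00675 to 0.0193. The antennal call at 24 h was lost under 8 settings, the pool as a block among them (adjusted p of up to 0.103). The body calls at 24 h and 48 h were lost under 1 and 2 settings and the head call at 48 h under 1 (up to 0.0527, 0.0614 and 0.0539), while those in palp and in antenna at 48 h held under all.

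**Figure D3:**
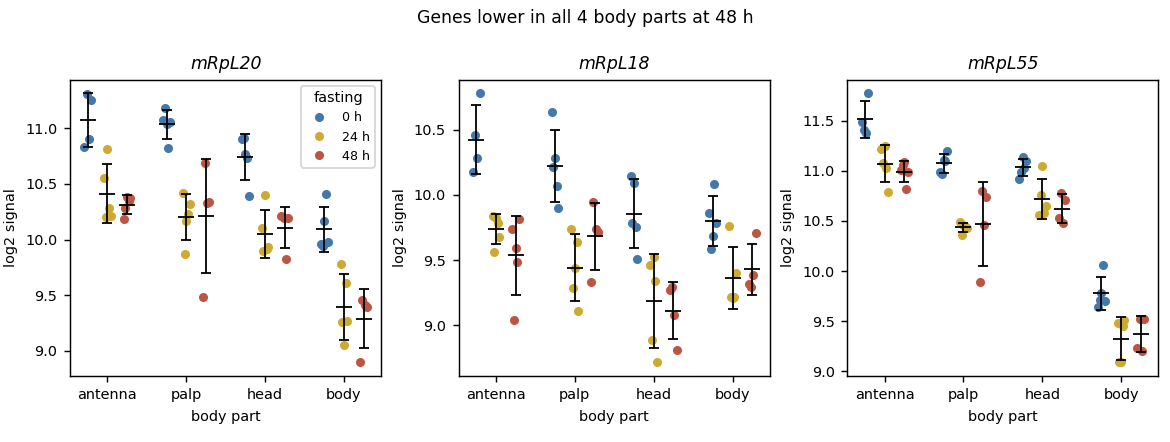
Log2 signal of mRpL20, mRpL18 and mRpL55 on each array (points) in 4 body parts at 0, 24 and 48 h, with group mean ± SD. The means of the fasted groups lie below that of 0 h in every part, and palp 48 h replicate 1 is the lowest palp array for mRpL20 (9.48) and mRpL55 (9.89).

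The other genes that fell in 3 parts at 48 h, mRpL11, mRpL3, mRpL24 and mRpL30, were also of the large subunit. mRpL11, counterpart of a bacterial protein at the base of the stalk that recruits translation factors, fell in antenna, palp and head at both times, with differences from -0.48 ± 0.12 (antenna, 24 h) to -0.87 ± 0.20 (palp, 24 h). Its call was lost under 10 settings in antenna at 24 h (adjusted p of up to 0.0933), 8 in palp at 48 h (0.143) and 5 in head at 48 h (0.0803). In body its difference was -0.21 ± 0.15 at 24 h and -0.33 ± 0.16 at 48 h (adjusted p = 0.324 and 0.0994). With the pool as a block, mRpL11 lost the call in antenna at 24 h and was lower in body at 48 h (-0.43 ± 0.14, adjusted p = 0.036). mRpL12, counterpart of the stalk protein itself, fell in antenna at 48 h (-0.56 ± 0.14, adjusted p = 0.0191) and in palp at 24 h (-0.67 ± 0.14, adjusted p = 0.00502) and 48 h (-0.50 ± 0.15, adjusted p = 0.0225). With the pool as a block, mRpL12 kept the call in palp at 24 h and lost the other calls, and it was lower in head (adjusted p = 0.038 and 0.015 at 24 h and 48 h) and body (0.0402 and 0.0363). mRpL3, whose bacterial counterpart lies close to the centre that joins amino acids, fell in palp at both times, and in head (-0.57 ± 0.19, adjusted p = 0.04) and body at 48 h. The body call of mRpL3 held under all settings, and those at 48 h in palp and head were lost under 6 and 8. mRpL24 fell in antenna and palp at both times and in head at 48 h (-0.48 ± 0.13, adjusted p = 0.0155). Its call was lost under 8 settings in antenna at 24 h (adjusted p of up to 0.153) and 6 in palp at 48 h (0.101), the pool as a block among them in both, and under 1 in head. In body mRpL24 differed by -0.05 ± 0.09 at 24 h and -0.16 ± 0.10 at 48 h. mRpL30 fell in palp and head at both times and in body at 48 h, by 0.37 to 0.55. The palp calls of mRpL30 held under all settings, while those in head were lost under 11 at either time (adjusted p of up to 0.111 and 0.166) and that in body under 9 (0.239). mRpL4, which with mRpL22 has bacterial counterparts in the wall of the exit tunnel, fell only in body at 48 h by the test used (-0.32 ± 0.11, adjusted p = 0.0347). That call was lost under 8 settings, the pool as a block among them (up to 0.216).

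Small-subunit genes were called less in number, but they were also fewer (25, against 44 of the large subunit). The share of them that fell was also below that of the large subunit in every comparison with 0 h except head at 24 h. In antenna it was 4% against 13.6% at 24 h, and 8% against 29.5% at 48 h. Small-subunit genes made up 1 of 7 and 2 of 15 genes lower in antenna at 24 h and 48 h, 6 of 20 and 0 of 8 in palp, 7 of 18 and 5 of 17 in head, and 2 of 6 and 3 of 20 in body. The difference between the subunits was not tested. Their medians were also below 0 in all 8 comparisons, from -0.31 in head at 24 h to -0.03 in palp at 48 h, while those of the large subunit ran from -0.33 in antenna at 48 h to -0.13 in palp at 48 h. mRpS2, counterpart of a bacterial protein on the solvent side of the small subunit, had the largest fall of this group in body. Its body arrays read 9.60, 9.68, 9.61, 10.20 and 9.97 at 0 h, 9.70, 8.64, 8.92, 9.47 and 9.30 at 24 h, then 8.71, 8.99, 9.38 and 8.98 at 48 h. The 48 h arrays lay below all 0 h arrays, and 1 of the 24 h arrays lay among them. The difference was -0.60 ± 0.20 at 24 h (adjusted p = 0.0498) and -0.79 ± 0.21 at 48 h (adjusted p = 0.00982). The call at 24 h was lost under 10 settings (adjusted p of up to 0.121), and that at 48 h with the 3′ minus 5′ control signal as a covariate (0.0688). mRpS30 fell in body at 24 h (-0.57 ± 0.18, adjusted p = 0.0407), a call lost under 8 settings (up to 0.101), and its difference of -0.48 ± 0.19 at 48 h did not pass (adjusted p = 0.0536), though it did with the pool as a block (adjusted p = 0.0472). mRpS5, counterpart of a bacterial protein at the entry channel of the messenger RNA, differed by at most 0.08 from 0 h in any comparison. mRpS29, a GTP-binding protein that bacteria lack, and mRpS7, which in bacteria organises the head of the small subunit, were called in no comparison with 0 h without the block. In the fit with the pool as a block, mRpS7 fell in head at 24 h (-0.41 ± 0.10, adjusted p = 0.0139) and 48 h (-0.38 ± 0.11, adjusted p = 0.0239). The estimates of mRpS29 ran from -0.16 ± 0.12 (body, 48 h) to 0.28 ± 0.11 (palp, 48 h), and those of mRpS7 from -0.35 ± 0.13 (head, 24 h) to 0.04 ± 0.08 (palp, 48 h).

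Without the block, mRpL45 and mRpL9 were the genes that rose in a comparison with 0 h. With the pool as a block, mRpL9 also rose in palp at 24 h (0.48 ± 0.15, adjusted p = 0.0483) and mRpS29 in palp at 48 h (0.35 ± 0.08, adjusted p = 0.012), fits in which 13.4% and 18.1% of features rose. mRpL45 is related to a mammalian protein at the exit of the tunnel, where new proteins meet the inner membrane. In palp it read 10.29, 10.21, 10.25, 10.10 and 10.05 at 0 h, 10.14, 10.21, 10.39, 10.37 and 10.36 at 24 h, then 10.53, 10.50, 10.54 and 10.66 at 48 h. In body it read 10.08, 10.16, 10.15, 10.13 and 10.16 at 0 h, 10.54, 10.28, 10.14, 10.21 and 10.21 at 24 h, then 10.41, 10.36, 10.36 and 10.36 at 48 h. In both parts all 48 h arrays lay above all 0 h arrays. The rise at 48 h was 0.38 ± 0.08 in palp (adjusted p = 0.00295) and 0.24 ± 0.08 in body (adjusted p = 0.0284). The rise stayed called in palp with the pool as a block, and in body the difference in that fit was 0.26 with an adjusted p of 0.0605. The call in body was also lost without 0 h replicate 1 or 4 or without 48 h replicate 1, 2 or 4, and in 1 fit over all arrays in both body (adjusted p = 0.236) and palp (adjusted p = 0.078). In antenna and head its differences at 48 h were 0.05 ± 0.26 and 0.15 ± 0.15.

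mRpL9, counterpart of a bacterial protein that reaches out from the base of the L1 stalk, read 11.40, 12.17, 11.77, 12.29 and 12.51 in palp at 0 h, 12.29, 12.30, 12.43, 12.24 and 12.46 at 24 h, then 12.55, 12.88, 12.45 and 12.60 at 48 h. The 0 h arrays were spread over more than 1 log2 unit, and the highest of them lay above the lowest 48 h array. The rise at 48 h was 0.59 ± 0.19 (adjusted p = 0.0255). It was lost without the filter on low signals, without 0 h replicate 3 and without 48 h replicates 1, 2 or 4, with an adjusted p of up to 0.075 over all settings.

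In palp most estimates at 48 h lay nearer to 0 than those at 24 h. Between 24 h and 48 h, 68 of the 69 estimates in palp were above 0, with mRpL28 (-0.03) the exception, and their median was 0.23, against 0.05 over all features. No gene passed the test (limma), 14 had an unadjusted p below 0.05, and 3 (mRpL4, mRpL45 and mRpS35) had 48 h arrays wholly above the 24 h arrays, against 5.71% of features. Of all features, 4.22% were called. With array weights, 17 genes were higher (24.6%, against 10.3% of features in that fit). Without 48 h replicate 1, whose median over the 69 genes was the lowest of the 48 h palp arrays, 2 genes were called. In antenna, head and body the medians of this comparison were -0.02, 0.02 and -0.03. No gene was called there (limma), where 0.1%, 1.37% and 6.44% of features were, and none had an unadjusted p below 0.05.

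The change from 0 h to 48 h was then compared between body parts in a single fit of all arrays. It tested 11565 features, with the filter on signal taken over all arrays. Features low in both parts compared can be among them, which may lower the background shares. Between palp and head, 1 gene differed, mRpS18B, a paralogue of the bacterial S18 family of the small subunit (1.45%, against 2.34% of features called in this direction). It read 10.80, 10.82, 10.76, 11.01 and 11.05 in palp at 0 h and 10.82, 11.31, 11.15 and 11.11 at 48 h. In head it read 10.72, 10.62, 10.78, 10.91 and 10.75 at 0 h and 10.46, 10.63, 10.48 and 10.52 at 48 h. At 48 h, 3 of the 4 palp arrays lay above every 0 h array, and 3 of the 4 head arrays lay below every 0 h array. The change in palp exceeded that in head by 0.45 ± 0.13 (adjusted p = 0.0336), although within either part the change did not pass (0.21 ± 0.12 in palp, adjusted p = 0.181, and -0.23 ± 0.09 in head, adjusted p = 0.0695). In antenna mRpS18B read 11.19, 11.11, 11.43 and 11.26 at 0 h and 11.08, 10.97, 11.02, 11.04 and 10.96 at 48 h, and its change minus that in palp was -0.45 ± 0.13 (adjusted p = 0.0276). It was the only gene called between antenna and palp, where 2.78% of features were lower. The call between palp and head was lost without 48 h replicates 1, 3 or 4 or 0 h replicates 3 or 4 of head, and without 48 h replicates 2, 3 or 4 or 0 h replicates 1, 2 or 3 of palp. The call between antenna and palp was lost without antenna 0 h replicate 3 or any of those same 6 palp arrays. With array weights, 11 genes exceeded in palp the change in head (15.9%, against 7.13% of features in that fit), and 7 were lower in antenna than in palp (10.1%, against 6.61%).

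Between body and head, mRpL10, counterpart of the protein that anchors the stalk, was the only gene called (1.45%, against 9.21% of features lower). In body it read 9.79, 9.89, 10.08, 10.27 and 9.93 at 0 h and 9.31, 9.46, 9.63 and 9.52 at 48 h, with no overlap. In head it read 10.84, 10.94, 10.72, 10.73 and 10.83 at 0 h and 10.91, 10.69, 10.65 and 10.98 at 48 h, with full overlap. The change in body minus that in head was -0.51 ± 0.15 (adjusted p = 0.0137), from -0.51 ± 0.13 in body (adjusted p = 0.00626) and 0.00 ± 0.10 in head. The number of genes called between these parts was 2 with the pool as a block, 2 without 48 h replicates 1, 2 or 3 of body and 3 without body 0 h replicate 4. Between antenna and head, no gene differed (limma, 0 with an unadjusted p below 0.05), where 4.39% of features were called.

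**Figure D4:**
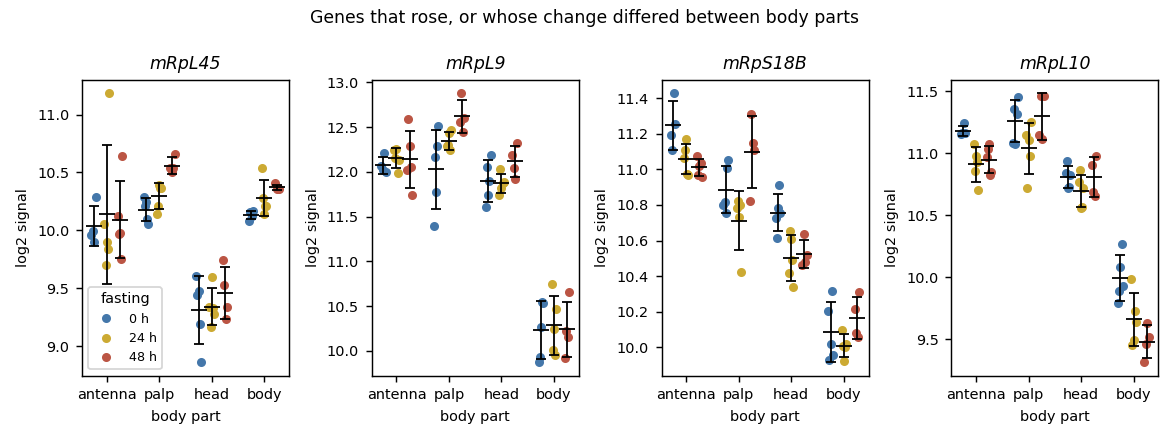
Log2 signal of mRpL45, mRpL9, mRpS18B and mRpL10 on each array (points) in 4 body parts at 0, 24 and 48 h, with group mean ± SD. Within palp, mRpL45 and mRpL9 have their highest mean at 48 h. The mean of mRpS18B at 48 h lies below that at 0 h in head and above it in palp, and mRpL10 is lower at 48 h in body, while its head groups overlap.

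Before fasting, antenna held more of these transcripts, relative to the others on the array, than head. In antenna, 29 genes were higher than in head (42.0%, against 26.4% of features) and 1 was lower (1.45%, against 22.5%), with a median difference of 0.30. The largest excesses were those of mRpS14 (0.72 ± 0.21), mRpL45 (0.72 ± 0.12), mRpL49 (0.71 ± 0.17) and mRpL30 (0.68 ± 0.16), with adjusted p from 6.48e-05 to 0.00774. The gene that was lower was mRpL50 (-0.41 ± 0.14, adjusted p = 0.0189), a call lost under 3 settings. In palp, 14 genes were higher than in head (20.3%, against 30.7% of features) and 8 lower (11.6%, against 23.2%), with a median of 0.12. mRpL45 (0.86 ± 0.11) and mRpL28 (0.77 ± 0.11) were the furthest above head in palp, and mRpS18C (-0.72 ± 0.21), mRpL50 (-0.60 ± 0.13) and mRpL51 (-0.59 ± 0.13) the furthest below.

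In body, 49 of the 69 genes were lower than in head (71.0%, against 54.5% of features) and 4 were higher (5.8%, against 31.4%). The median difference was -0.56, and that of all features tested was -0.55, nearly the same. The genes above head were mRpS17 (0.97 ± 0.26), mRpL45 (0.82 ± 0.11), mRpL28 (0.72 ± 0.11) and mRpS7 (0.21 ± 0.07). With the 3′ minus 5′ control signal as a covariate, whose median was 1.80 in body and 3.33 in head, mRpS17 and mRpS7 lost the call (adjusted p = 0.396 and 0.256). The furthest below were mRpL48 (-2.54 ± 0.17), mRpL9 (-1.67 ± 0.19), mRpL50 (-1.64 ± 0.13) and mRpS18C (-1.63 ± 0.21), with adjusted p of 8.59e-07 or less. mRpL48, one of the proteins bacteria lack, read 5.93, 6.28, 6.04, 7.07 and 6.52 in body and 8.87, 8.89, 8.98, 9.02 and 8.81 in head before fasting, 5.83-fold lower in body. After fasting it read 6.08, 6.16, 5.46, 5.60 and 5.42 in body at 24 h and 5.54, 5.78, 5.62 and 5.84 at 48 h. All 48 h body arrays lay below all 0 h arrays, a difference of -0.67 ± 0.23 (adjusted p = 0.0257), which was lost under 6 settings, among them the pool as a block, the 3′ minus 5′ control signal as a covariate and the leaving out of 48 h replicate 1. In head mRpL48 fell at 24 h by 0.33 ± 0.08 (adjusted p = 0.0102), from the 0 h values above to 8.51, 8.48, 8.72, 8.66 and 8.53, a call lost in 1 fit over all arrays (adjusted p = 0.11).

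Other genes of mitochondrial gene expression were described as lists for comparison. Of the 2 mitochondrial ribosomal proteins under other symbols, bonsai, the counterpart of bacterial S15, fell in antenna at 48 h (-0.47 ± 0.14, adjusted p = 0.0348), palp at 24 h (-0.46 ± 0.11, adjusted p = 0.0108), and head at 24 h (-0.40 ± 0.12, adjusted p = 0.0336) and 48 h (-0.51 ± 0.12, adjusted p = 0.00979). The other, tko, the counterpart of S12 of the decoding site, was called in no comparison with 0 h, and its estimates ran from -0.33 ± 0.20 (body, 24 h) to 0.17 ± 0.17 (palp, 48 h).

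Genes that serve the same ribosome did not all read lower. PolrMT, the RNA polymerase that transcribes mitochondrial DNA, rose at 48 h in antenna (0.47 ± 0.15, adjusted p = 0.0475), palp (1.12 ± 0.16, adjusted p = 0.000177), head (0.72 ± 0.19, adjusted p = 0.0128) and body (0.71 ± 0.16, adjusted p = 0.00358). Of 8 genes of mitochondrial transcription and biogenesis, PolrMT among them, 2, 3, 1 and 2 rose at 48 h in antenna, palp, head and body, and none fell. These are 25%, 37.5%, 12.5% and 25% of the list, where 8.61%, 17.4%, 13.2% and 29.8% of all features rose, so head and body were not above the background. Of the 13 translation and assembly factors (10 tested in body), 1, 5, 2 and 5 rose at 48 h in antenna, palp, head and body, and 1, 0, 0 and 2 fell. The shares that rose were 38.5% in palp and 50% in body, above those of all features, and near them in antenna (7.69%) and head (2 of 13 genes). The shares that fell were 7.69% in antenna (all features, 8.97%), 0% in palp (15.7%), 0% in head (12.3%) and 20% in body (21.0%), none above the background. mEFTu2, of the elongation factors that bring transfer RNAs to the ribosome, rose in palp at 48 h by 0.72 ± 0.10 (adjusted p = 0.000163), in head by 0.42 ± 0.13 (adjusted p = 0.0276) and in body by 0.43 ± 0.09 (adjusted p = 0.00206). The related mEFTu1 fell in antenna at 48 h (-0.31 ± 0.10, adjusted p = 0.0417) and in body at 48 h (-0.41 ± 0.14, adjusted p = 0.0249). mTerf5, of a family of proteins that bind mitochondrial nucleic acids, rose in palp and body at both times and in head at 48 h, by up to 0.74 ± 0.12 (body, 48 h, adjusted p = 0.000333). Of the 15 aminoacyl-tRNA synthetases of mitochondria, MetRS-m fell in palp at 24 h (-0.94 ± 0.26, adjusted p = 0.0206) and in head at 24 h (-0.79 ± 0.15, adjusted p = 0.00306) and 48 h (-0.53 ± 0.16, adjusted p = 0.0254), and ValRS-m rose in palp at 48 h and in body at both times, by 0.49 to 0.66. No gene of this list was called in antenna. At 48 h, 2 rose and 1 fell in palp (13.3% and 6.67%, against 17.4% and 15.7% of features), and 1 fell in head (6.67%, against 12.3%). In body, where 10 were tested, 3 rose and 2 fell at 48 h (30% and 20%, against 29.8% and 21.0%). At 24 h, 1 fell in palp, head and body each (6.67%, 6.67% and 10%, against 12.5%, 9.7% and 12.0%), and 1 rose in body (10%, against 9.17%).

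The listed ribosomal proteins of the cytosol showed medians near 0 throughout, from -0.02 in head at 24 h to 0.07 in palp at 48 h. The list held only genes with a probe set naming 1 gene, 41 in all, of which 33 to 35 were tested outside body. It includes symbols such as RpL22-like and RpL7-like and may lack other proteins of that ribosome, so it does not stand for the whole. Of 41 such genes in body at 48 h, 6 were higher (14.6%, against 29.8% of features) and none lower. In antenna at 48 h, 1 of 35 was higher (2.86%, against 8.61% of features). Subunits of oxidative phosphorylation, which include the partners of the proteins the mitochondrial ribosome makes, had medians at 48 h of -0.18 in head, -0.15 in body, -0.05 in palp and -0.20 in antenna. Of these, 11 of 59 fell and 1 rose in antenna, 2 of 60 fell and 1 rose in palp, 6 of 57 fell in head, and 16 of 77 fell and 16 rose in body. The shares that fell were 18.6% in antenna (all features, 8.97%), 3.33% in palp (15.7%), 10.5% in head (12.3%) and 20.8% in body (21.0%), near the background in head and body. Of the 12 tested genes of mitochondrial protein import, Tom70, Hsp60A, Tim8, Tim9a and Tom7 fell in palp at both times (41.7% at 48 h, against 15.7% of features), Tom70 by 0.60 ± 0.11 at 24 h (adjusted p = 0.00255) and 0.67 ± 0.12 at 48 h (adjusted p = 0.00102). In body at 48 h, 6 of 18 import genes rose (33.3%, near the 29.8% of all features), Tom70 among them (0.54 ± 0.19, adjusted p = 0.0316), and none fell. The body counts of these 3 lists hold genes that passed the signal filter in body but not in every other part. Before fasting, the upper quartile of body minus head was 5.19 for oxidative phosphorylation and 7.42 for import. The body counts were not split by such genes, so they cover other genes than those of the other parts.

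**Figure D5:**
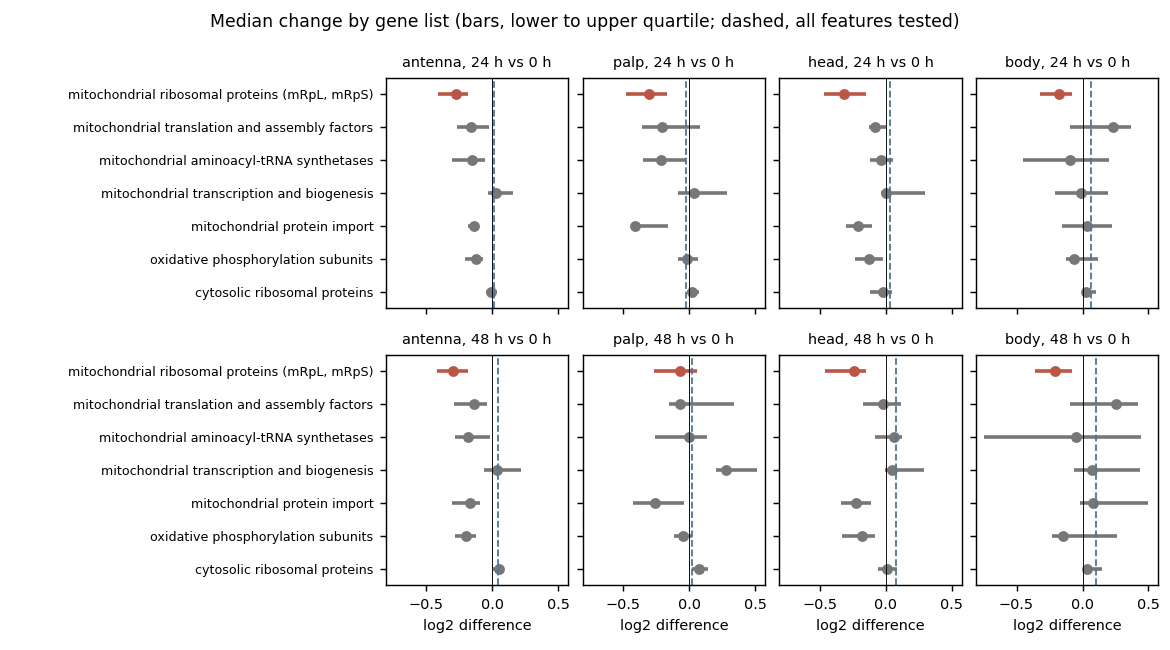
Median log2 difference from 0 h of each gene list (points, with bars from the lower to the upper quartile of its genes) in the 4 body parts at 24 h (top) and 48 h (bottom). The dashed line is the median of all features tested in that comparison. Mitochondrial ribosomal proteins (red) lie left of it in all 8 panels, and cytosolic ribosomal proteins lie near 0.

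The genes mRpS11 and mRpL47 had 2 probe sets each, and no pair was called in opposite directions, but some calls rested on 1 of them. With every probe set tested (limma), mRpS11 fell in head at 24 h on the one used (adjusted p = 0.0154) and not on the other (0.459). For mRpL47, the probe set not used fell in antenna at 48 h (adjusted p = 0.0247) and palp at 24 h (0.00852), and the one used did not pass there (0.125 and 0.0821). In the RefSeq annotation (order of genes only) no mRp gene was next to another, and 41 of the 69 overlapped another protein-coding gene, among them mRpL18, mRpL11, mRpL10, mRpL9, mRpL48 and mRpS2. Where a probe set matches sequence shared by such a pair, the signals cannot be told apart.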

How the data were processed

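The authors deposited log2 signals made with GCRMA (per the submitters' processing notes, without a version), and sorted values were nearly the same on all arrays, so scaling across arrays was already in them. Per the labels, RNA was amplified and labelled with NuGEN Ovation kits before hybridisation. From these values, the 183 control probe sets were left out, and a gene with several probe sets was represented by the one with the highest mean (11983 genes, 17105 features in all). Gene names came from the platform annotation, where 13647 probe sets name 1 gene, 402 several and 4720 none. The probe sets shared by mRpS10 or mRpL53 with another gene were not used. All 69 genes matched the RefSeq gene table. Features with a log2 signal of at least 4 on at least 4 arrays were tested with limma 3.58.1 (R 4.3.3), by lmFit and eBayes, two-sided, with Benjamini-Hochberg adjustment. Changes with time were fitted per body part, differences between parts in one fit of all 56 arrays, and unfasted differences on the 0 h arrays. The tests were tried on simulated data first. Tables and figures were made in Python 3.11.15 with pandas 2.3.3 and matplotlib 3.10.9.

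The genes, lists and tests were chosen with earlier results of these data known. Named genes were up to 4 with the largest called fall and rise per comparison, all called in 3 or 4 parts, and mRpL3, mRpL4, mRpL10, mRpL12, mRpL55, mRpS5, mRpS7, mRpS18B, mRpS29 and mRpS30 whatever their result. Others, such as PolrMT, mEFTu2, MetRS-m and Tom70, were named after their values were seen. The labels give each array's pool, which pairs arrays across times. Within head, residuals of 2 arrays from 1 pool correlated at 0.20 on average and those from different pools at -0.04. The same averages were 0.13 and -0.03 for palp, 0.11 and -0.02 for body, and 0.12 and -0.02 for antenna. The number of arrays limits the precision of every value. Within a group each array came from a different pool, and the main p-values measure the spread between those arrays without pairing by pool. The p-values with the pool as a block measure the spread left after differences between pools are taken out.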

Additional observations from a re-analysis of the deposited data

Results flagged for a closer look

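Single arrays stood apart from the rest of their group for a few of the genes whose arrays are given above. Chance gives this in about 1 in 20 groups, and 81 groups were looked at. The signal of mRpL20 in body at 48 h was 8.90 on replicate 1, below the other 3 arrays, and in head at 48 h it was 9.83 on replicate 3, also below the other 3. mRpL45 in body at 48 h read 10.41 on replicate 1, above 3 arrays that lay very close together. mRpS18B in palp at 24 h read 10.42 on replicate 5, below the other 4.

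Differences between body parts in the change from 0 h to 48 h were found for 2 genes. The change of mRpS18B in palp minus that in head was 0.45, and that in antenna minus that in palp was -0.45. The change of mRpL10 in body minus that in head was -0.51.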

How the results depend on the processing

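Counts of genes called were recomputed under every other setting, and 2 settings were chosen after seeing the data. These were leaving out the 5 arrays listed above for transcripts of other tissues, and the 3′ minus 5′ control signal as a covariate. Counts that moved by more than 1.5 times are given here, for comparisons with 0 h unless another is named, and no called gene reversed its direction. Without the filter on low signals, 2 genes were called in antenna at 24 h (7 with it), 6 in palp at 48 h (10) and 3 in body at 24 h (6). With array weights, the counts were 22 and 24 in antenna at 24 and 48 h, 17 in palp at 48 h, 36 and 44 in head at 24 and 48 h and 24 in body at 24 h, 17 between 24 and 48 h in palp, and 11, 2 and 7 for the change between palp and head, body and head, and antenna and palp. In 1 fit over all arrays they were 13 in antenna, 29 in head and 13 in body at 24 h, and 1 in palp between 24 and 48 h. Without the 5 arrays they were 11 in antenna and 9 in palp at 24 h, and 2 for the change between body and head. With the covariate they were 13 and 4 in body at 24 and 48 h, 1 in palp between 24 and 48 h, and 3 for the change between body and head.

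With the pool as a fixed replicate block, the counts were 0 and 6 in antenna at 24 and 48 h, 42 and 38 in head, and 2 for the change between body and head. With the pool as a random block they were 12 in antenna, 42 in head and 12 in body at 24 h, 42 in head at 48 h, and 2 for the change between body and head. The block changed the other counts by less than 1.5 times.

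Leaving out 1 array at a time gave 1 to 20 and 9 to 19 genes in antenna at 24 and 48 h, 14 to 21 and 5 to 12 in palp, 11 to 26 and 8 to 22 in head, and 2 to 19 and 9 to 24 in body. It gave 0 to 2 in palp between 24 and 48 h, 0 to 2 for the change between palp and head and between antenna and palp, and 1 to 3 for that between body and head. For the unfasted differences from head it gave 22 to 32 in antenna, 15 to 24 in palp and 50 to 54 in body, and no other setting moved these. Signal over background was not a limit for these genes, since none fell below 4 on any array.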

Other observations

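mRpL45 stood high in antenna on the fasted arrays of pool 8. The 24 h arrays of antenna read 10.06, 9.71, 9.90, 9.84 and 11.19, and the 48 h arrays 10.12, 9.97, 9.97, 9.75 and 10.64, where the last of each is pool 8. Its 0 h antennal arrays read 9.90 to 10.29.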
